A study of Rattus norvegicus with 6 samples.

Results

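Glycosyltransferases build the sugar chains of glycoproteins, glycolipids and proteoglycans, and glycan sulfotransferases decorate these chains with sulfate. Their genes were taken from the expression profiles of C6 cells by symbol, as those whose names begin with the stems of the known enzyme families (Galnt, B3galt, B3galnt, B3gnt, B3gat, B4galt, St3gal, St6gal, St6galnac, Mgat, Fut, Gcnt, Ext, Extl, Chst, Chsy, Chpf, Csgalnact, the heparan sulfate sulfotransferases, Ndst, Has, Pomt, Pomgnt, Poglut, Alg, Xylt and the endosulfatases Sulf). In total, 88 of the 12121 listed genes matched and were sorted into 12 classes by the glycan that the enzyme is known to build. The St8sia stem matched no listed symbol. C6 is an established rat glioma line that came from a chemically induced brain tumor. The series holds 3 RNA-seq libraries of C6 cells labelled as overexpressing Aqp1, the gene of a water channel (C6-AQP1), and 3 of control C6 cells. According to the methods, the AQP1 sequence was placed in a pCDH vector with a CMV promoter, a CopGFP reporter and a puromycin marker. In its other assays the study used a control line with the vector, C6-Pcdh, but the labels of the sequenced controls do not say if they held it. It is also not stated if the C6-AQP1 line was 1 clone. Nor do they say that replicate libraries stem from separate cultures, so the p-values measure only library-to-library spread, which can be technical.

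N-linked chains start as a lipid-linked precursor that the Alg enzymes assemble on dolichol in the endoplasmic reticulum and that oligosaccharyltransferase moves to the protein. The Mgat enzymes then set the number of branches in the Golgi. O-linked chains start with a single sugar on serine or threonine, and heparan and chondroitin sulfate grow on a short linker that begins with xylose. Sialic acid, fucose and sulfate cap the finished chains. In the brain, chondroitin sulfate proteoglycans such as brevican fill the matrix around glia, and gangliosides and sialylated glycoproteins cover the cell surface.

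The expected counts of the libraries summed to between 19054244 and 52725870, with the lowest sum of each group in replicate 1. Aqp1 (ENSRNOG00000011648) had normalized CPM of 1052, 1064 and 1057 in C6-AQP1 replicates 1, 2 and 3 and of 347, 352 and 349 in C6 control replicates 1, 2 and 3, a log2 fold change of 1.60 ± 0.02 (SE, edgeR adjusted p = 5.8e-25). Of the astroglial markers, Gfap, S100b, Vim, Slc1a3 and Glul were listed and all 5 rose, with summed levels of 3752 to 3936 normalized CPM in C6-AQP1 and 2282 to 2331 in the controls. Of the 5 oligodendrocyte markers 4 were listed and 3 rose, with summed levels of 1402 to 1484 normalized CPM against 698 to 731. Among the 3 listed neuronal markers 2 rose, with sums of 257 to 263 against 84.9 to 88.3. Most of this sum was Map2 (mean 254 against 81.8), Snap25 was low (1.91 against 0.241) and Tubb3 did not pass. Tek was the 1 listed endothelial marker of 5 and rose, with 7.94 to 8.55 against 2.19 to 3.14 normalized CPM, and none of the 5 microglial and leukocyte markers was listed. The part of these shifts in the changes given here was not tested.

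In a test over all genes, 37 of the 88 genes rose in C6-AQP1 cells, 38 fell and 13 did not pass an adjusted p of 0.05 in the quasi-likelihood test of edgeR. Of all 12121 genes, 81.5% passed, 40.8% rose and 40.7% fell by the same rule, so passing the test was common and the glycan genes as a whole were split like the rest. Their median log2 fold change was -0.03, and that of all genes was 0.00. Most of the changes were small: 23 of the 37 rises and 31 of the 38 falls were under 1.5-fold, against 2543 of 4948 rises and 3117 of 4930 falls among all genes. Differentially expressed genes (DEGs), with a fold change above 2 as well, numbered 8 higher and 3 lower, against 9.74% higher and 4.35% lower among all genes. In 73 of the 88 genes the libraries of the groups did not overlap (35 with C6-AQP1 higher and 38 with it lower), which held for 82.5% of all genes. Counts by class are in the plot of calls by class. In 5 of the 12 classes more than 50% of the genes fell (precursor assembly, branching, O-GalNAc, O-glucose and O-fucose, and the linker), and in the heparan sulfate, chondroitin sulfate, O-mannose and sialic acid classes more than 50% rose. No class was tested as a set. In bulk RNA, fewer cells of a type and less RNA per cell cannot be told apart.

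**Figure D1:**
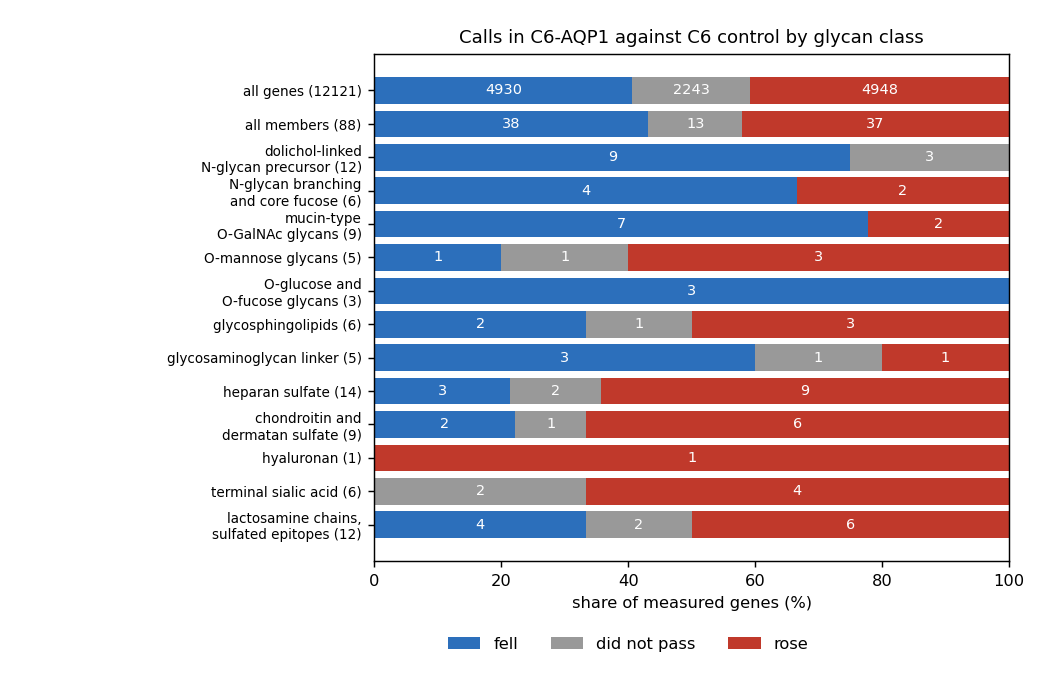
Share of measured genes (%) that fell, did not pass or rose in C6-AQP1 against C6 control, for all 12121 genes, for the 88 glycan genes and for each glycan class, with the number of genes in each bar and the number measured in brackets. The dolichol-linked precursor class holds 9 falls among 12 genes and no rise, and the terminal sialic acid class 4 rises among 6 genes and no fall.

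The largest rise was that of Extl1, a glucosaminyltransferase that lengthens heparan sulfate, which was 6.81-fold higher in C6-AQP1, followed by B3galt5, a galactosyltransferase that makes type 1 chains, at 6.23-fold. The largest fall was that of B3gnt5, the enzyme that starts lacto-series glycolipids, which was 2.74-fold lower. From an enrichment of binding sites, the study tied the transcription factors FOXO4 and MAZ to its upregulated DEGs and E2F factors to its downregulated DEGs. Here the 250 bases before the annotated start were searched for TTGTTT (FOXO4) and GGGAGGG (MAZ) on both strands. E2F was not searched. RefSeq held such a sequence for 71 of the 88 genes, in build GRCr8, while the counts rest on rn6. FOXO4 letters were in 8 of the 71 promoters (11.3%) and in 11.7% of the 8636 promoters of listed genes. MAZ letters were in 17 (23.9%) against 24.4%. Among genes that rose, 4 of 28 promoters held the FOXO4 letters and 4 of 28 the MAZ letters, and among genes that fell it was 4 of 31 and 9 of 31. Of the DEGs, 7 had a sequence. The promoters of the genes with the largest rises are shown with those of the DEGs that hold a match, St3gal6 for FOXO4 and B3gnt5 for MAZ. Capitals mark the match (CCCTCCC is the MAZ motif on the other strand), and the sequences of Extl1 and B3galt5 hold none.
Extl1 (chr5:151872831-151873080, minus strand): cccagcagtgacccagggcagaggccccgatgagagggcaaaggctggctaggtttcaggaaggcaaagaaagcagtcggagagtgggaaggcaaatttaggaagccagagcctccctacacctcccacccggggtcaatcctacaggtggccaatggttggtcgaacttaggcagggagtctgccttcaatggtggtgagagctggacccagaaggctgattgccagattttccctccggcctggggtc
B3galt5 (chr11:49093945-49094194, plus strand): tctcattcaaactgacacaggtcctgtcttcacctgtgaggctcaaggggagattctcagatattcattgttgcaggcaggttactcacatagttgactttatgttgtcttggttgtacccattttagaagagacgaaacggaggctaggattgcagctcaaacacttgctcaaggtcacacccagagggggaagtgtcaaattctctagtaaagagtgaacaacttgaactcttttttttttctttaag
St3gal6 (chr11:55546538-55546787, plus strand): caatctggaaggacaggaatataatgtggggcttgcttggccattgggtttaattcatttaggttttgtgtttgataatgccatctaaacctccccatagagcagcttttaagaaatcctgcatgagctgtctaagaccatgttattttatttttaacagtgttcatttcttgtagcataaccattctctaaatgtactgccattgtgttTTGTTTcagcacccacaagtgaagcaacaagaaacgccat
B3gnt5 (chr11:94657585-94657834, minus strand): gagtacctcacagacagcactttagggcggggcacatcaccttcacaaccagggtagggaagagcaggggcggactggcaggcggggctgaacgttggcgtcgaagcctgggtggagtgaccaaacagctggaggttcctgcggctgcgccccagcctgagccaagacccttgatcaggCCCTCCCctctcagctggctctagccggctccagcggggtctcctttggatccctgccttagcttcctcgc
The match in St3gal6 begins 40 bases before the start, and that in B3gnt5 71 bases before it. Whether the annotated starts, such as that of B3galt5, are the ones used in C6 cells was not tested. The matches describe letters in a window and were no test of binding. Nor do these matches test the study's enrichment, which rested on its DEGs and on other binding-site sets.

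**Figure D2:**
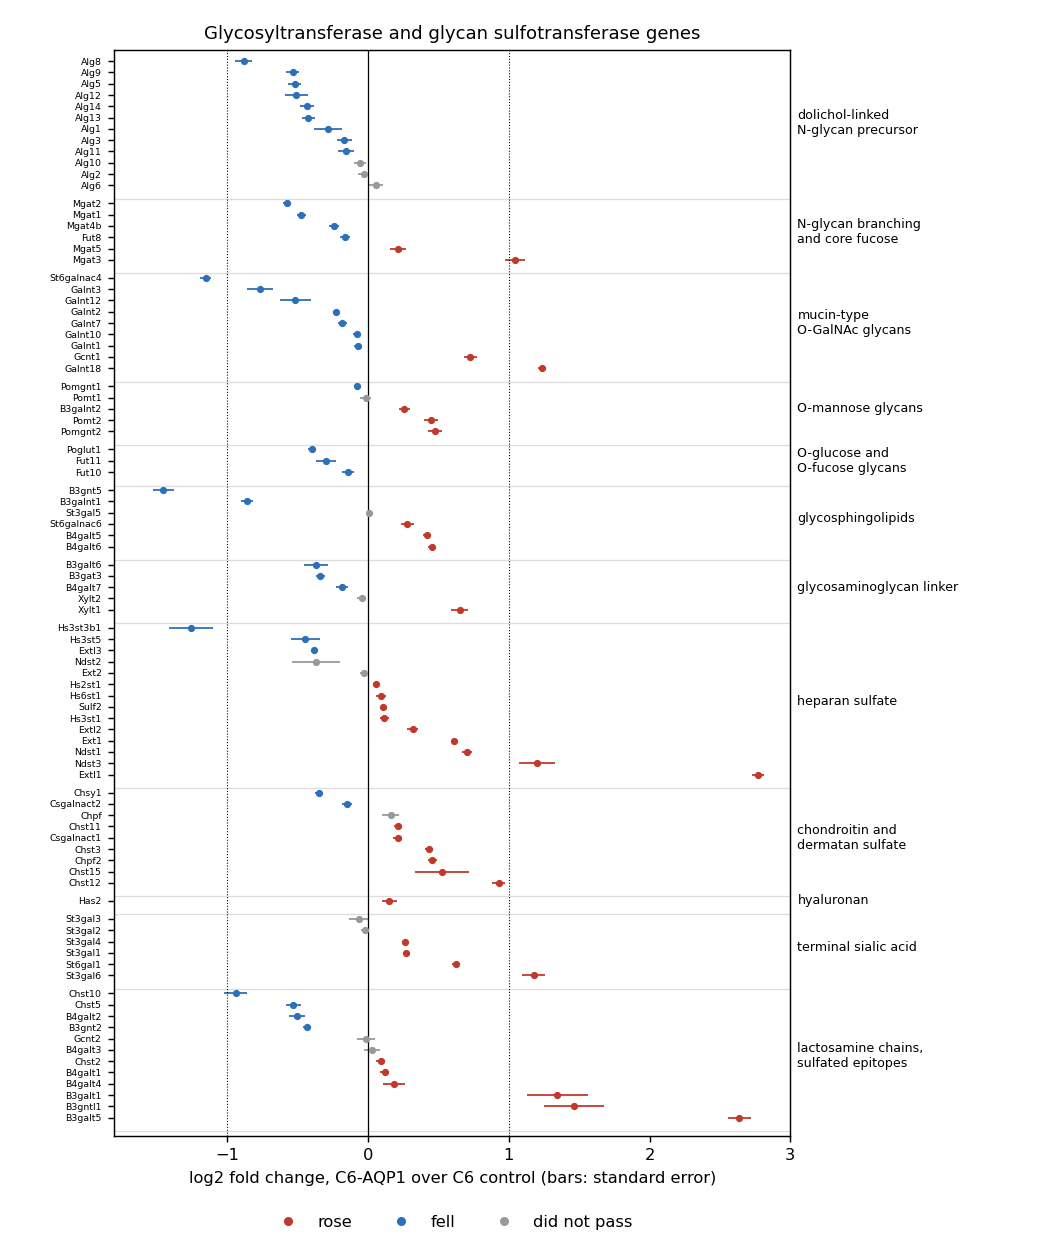
Log2 fold change (C6-AQP1 over C6 control, horizontal axis) of all 88 genes, sorted within each glycan class, with bars for the standard error and dotted lines at a 2-fold change. Extl1 and B3galt5 lie far to the right, at 2.77 and 2.64, and B3gnt5 lies farthest to the left, at -1.45.

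Genes that assemble the N-glycan precursor were lower in C6-AQP1 cells or did not pass. Of the 12 Alg genes, 9 fell, none rose and 3 did not pass, with a median log2 fold change of -0.35. Alg8, a glucosyltransferase of the precursor, had normalized CPM of 11.3, 11.2 and 11.1 in C6-AQP1 replicates 1, 2 and 3 and of 21.2, 20.03 and 20.7 in C6 control replicates 1, 2 and 3. Every control library was above every C6-AQP1 library for Alg8, a log2 fold change of -0.88 ± 0.06 (SE, edgeR adjusted p = 1.4e-11). Alg9, a mannosyltransferase, had 26.8 ± 1.36 normalized CPM over the C6-AQP1 libraries against 38.5 ± 0.749 over the controls (SD, n = 3), a log2 fold change of -0.53 ± 0.04 (SE, edgeR adjusted p = 3.5e-10). Alg5 and Alg12 followed with log2 fold changes of -0.52 and -0.51. Alg13 and Alg14, which form a single enzyme, fell alike, with log2 fold changes of -0.42 and -0.44. The ratio of Alg13 to Alg14 counts within a library was 1.19 to 1.29 in C6-AQP1 and 1.22 to 1.24 in the controls. Alg2, Alg6 and Alg10 did not pass, with log2 fold changes between -0.06 and 0.06. Alg6 passed as a rise with library totals alone (log2 fold change 0.11, adjusted p = 0.0365, edgeR) and without C6 control replicate 1 (0.11, adjusted p = 0.0306). Alg2 had 51, 52.2 and 56.7 normalized CPM in the C6-AQP1 libraries and 55.2, 54.5 and 54.5 in the controls, and these ranges overlapped. Alg11 lost its call under both other scalings (adjusted p = 0.0558 with upper-quartile scaling and 0.103 with library totals, edgeR) and without C6-AQP1 replicate 3 (0.0697), without C6 control replicate 1 (0.0770) or without both replicate 1 libraries (0.108). Alg1 lost its call without C6 control replicate 3 (adjusted p = 0.0640, edgeR) or without both replicate 1 libraries (0.0588), and the class held 7 to 9 falls and up to 1 rise over all alternatives.

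Steps around the Alg enzymes, from a list chosen like the classes, also fell for the most part. Of 19 genes for dolichol, dolichol-phosphate mannose and oligosaccharyltransferase, 18 fell and 1 rose, with a median of -0.59. Among all genes, 40.7% fell and 40.8% rose. Ostc, a subunit of oligosaccharyltransferase, had 53.4 ± 3.65 normalized CPM over the C6-AQP1 libraries against 102 ± 2.96 over the controls (SD, n = 3), a log2 fold change of -0.95 ± 0.04 (SE, edgeR adjusted p = 2.1e-13). Dpm3 and Dpm2, subunits of dolichol-phosphate mannose synthase, had log2 fold changes of -0.79 and -0.71. Stt3b, a catalytic subunit of oligosaccharyltransferase, had a log2 fold change of -0.59, while Stt3a was not in this list. Of 13 glucosidases and mannosidases that trim the chain, 4 rose, 6 fell and 3 did not pass, with a median of -0.16. The paralogous Golgi mannosidases went apart: Man2a1 fell, with a log2 fold change of -0.88, and Man2a2 rose, with 0.74. Man1a2, which trims before them, had -0.53.

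Among the 6 genes for branching and core fucose, Mgat3 and Mgat5 rose and the other 4 fell. Mgat1 and Mgat2, which start the branches of complex chains, had log2 fold changes of -0.47 and -0.58. For Mgat2 the libraries had 87.5, 85.9 and 90.7 normalized CPM in the C6-AQP1 libraries and 132, 132 and 131 in the controls, without overlap (adjusted p = 2.3e-14 from edgeR). Mgat4b, which adds a further branch, had -0.24, and Mgat5, which makes the most highly branched chains, had 0.21. Mgat3 adds the bisecting N-acetylglucosamine, which blocks further branching. It had normalized CPM of 16.6, 18.7 and 19.2 in C6-AQP1 replicates 1, 2 and 3 and of 8.39, 8.64 and 9.45 in C6 control replicates 1, 2 and 3. The lowest C6-AQP1 library was above the highest control, a log2 fold change of 1.04 ± 0.07 (SE, edgeR adjusted p = 1.7e-11), which was 2.06-fold. Mgat3 was the 1 DEG of this class. Fut8, the core fucosyltransferase, fell by 0.16 on the log2 scale (adjusted p = 1.2e-04 from edgeR).

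In the O-GalNAc class, 7 of 9 genes fell and 2 rose. The family of polypeptide GalNAc-transferases (Galnt) puts the first sugar on mucin-type sites, and the activity of each member was not measured here. Of 7 listed, Galnt18 rose and the other 6 fell. Galnt18 had normalized CPM of 116, 118 and 120.3 in C6-AQP1 replicates 1, 2 and 3 and of 51.3, 49.8 and 50.02 in C6 control replicates 1, 2 and 3, a log2 fold change of 1.23 ± 0.03 (SE, edgeR adjusted p = 1.4e-19). The groups lay far apart, and Galnt18 was 2.35-fold higher in C6-AQP1. Galnt2 had 226 ± 2.90 normalized CPM over the C6-AQP1 libraries against 265 ± 4.33 over the controls (SD, n = 3), a log2 fold change of -0.23 ± 0.02 (SE, edgeR adjusted p = 2.8e-09). The largest fall of a Galnt gene was that of Galnt3, at -0.77, followed by Galnt12, at -0.51. The falls of Galnt1 and Galnt10 were under 1.1-fold and lost their call under both other scalings (adjusted p = 0.118 and 0.116 with upper-quartile scaling and 0.424 and 0.350 with library totals, edgeR). Both also lost it without C6 control replicate 2 (0.0628 and 0.0541), and Galnt1 without C6-AQP1 replicate 3 (0.0507). Gcnt1, which adds the branch of core structures, rose, with a log2 fold change of 0.73. St6galnac4, which puts sialic acid on the GalNAc of sialylated core structures, had normalized CPM of 28.8, 31.2 and 29.6 in C6-AQP1 replicates 1, 2 and 3 and of 67.5, 66.1 and 66.9 in C6 control replicates 1, 2 and 3. This was a 2.22-fold lower level in C6-AQP1, a log2 fold change of -1.15 ± 0.04 (SE, edgeR adjusted p = 3.2e-17). Outside the symbol rule, C1galt1 and its chaperone C1galt1c1, which make the common core, had log2 fold changes of -0.27 and -0.74.

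O-mannose chains, best known on dystroglycan, are begun by the complex of Pomt1 and Pomt2. Of 5 genes of this class 3 rose, 1 fell and 1 did not pass. Pomt2 had 34.3 ± 1.82 normalized CPM over the C6-AQP1 libraries against 25.2 ± 0.616 over the controls (SD, n = 3), a log2 fold change of 0.45 ± 0.05 (SE, edgeR adjusted p = 1.5e-08). Its partner Pomt1 had 42.8, 44.4 and 45.9 normalized CPM in the C6-AQP1 libraries and 44.6, 43.7 and 46.7 in the controls and did not pass (log2 fold change -0.02, adjusted p = 0.72 from edgeR). Within a library the ratio of Pomt2 to Pomt1 counts was 0.751 to 0.795 in C6-AQP1 and 0.549 to 0.583 in the controls. These ranges did not overlap, which held for 61 of 70 pairs of related enzymes. Pomgnt2 and B3galnt2, which extend the chain that binds laminin, had log2 fold changes of 0.48 and 0.26. Pomgnt1 fell by 0.07 on the log2 scale, and this call ended with either other scaling (adjusted p = 0.164 with upper-quartile scaling and 0.469 with library totals, edgeR). It also ended without C6 control replicate 2 and without C6 control replicate 3 (adjusted p = 0.0649 and 0.0622). Dag1, the dystroglycan gene, had a log2 fold change of 0.19.

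All 3 genes of the O-glucose and O-fucose class fell. Poglut1, which puts glucose on the EGF repeats of Notch, had 121, 115 and 117 normalized CPM in the C6-AQP1 libraries and 159.7, 154 and 152 in the controls, a log2 fold change of -0.40 ± 0.03 (SE, edgeR adjusted p = 9.5e-12). Fut11 and Fut10, placed here as protein O-fucosyltransferases, had log2 fold changes of -0.30 and -0.14. The call of Fut10 ended when library totals alone were used (adjusted p = 0.0532, edgeR). Of other Notch-modifying enzymes outside the symbol rule, Pofut1 and Lfng had -0.59 and -0.69 on the same scale, and Rfng had 0.17. Eogt and Xxylt1 had -0.49 and -0.15, and Gxylt1 did not pass, with 0.01 (adjusted p = 0.826 from edgeR).

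Of 6 glycolipid enzymes, 3 rose, 2 fell and 1 did not pass. B4galt5 and B4galt6, the lactosylceramide synthases, had log2 fold changes of 0.42 and 0.46. B4galt6 had 160.3 ± 4.86 normalized CPM over the C6-AQP1 libraries against 116 ± 2.15 over the controls (SD, n = 3) (adjusted p = 9.9e-13 from edgeR). St3gal5, which turns lactosylceramide into the ganglioside GM3, had 181, 184 and 181 normalized CPM in the C6-AQP1 libraries and 177, 184 and 182 in the controls and did not pass (log2 fold change 0.01, adjusted p = 0.737 from edgeR). The groups of St3gal5 overlapped. It passed when library totals alone were used (log2 fold change 0.06, adjusted p = 0.0163, edgeR). B3gnt5, which starts the lacto-series branch, had normalized CPM of 5.74, 5.14 and 5.46 in C6-AQP1 replicates 1, 2 and 3 and of 15, 14.8 and 14.6 in C6 control replicates 1, 2 and 3. Each control library was more than 2-fold above each C6-AQP1 library, a log2 fold change of -1.45 ± 0.08 (SE, edgeR adjusted p = 1.2e-13). B3galnt1, which makes globoside, had 23.7 ± 1.04 normalized CPM over the C6-AQP1 libraries against 43.3 ± 0.748 over the controls (SD, n = 3), a log2 fold change of -0.86 ± 0.04 (SE, edgeR adjusted p = 5.6e-14). St6galnac6, which adds sialic acid to gangliosides, rose, with a log2 fold change of 0.28, as did Ugcg outside the symbol rule, which makes the first glucosylceramide, with 0.29.

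**Figure D3:**
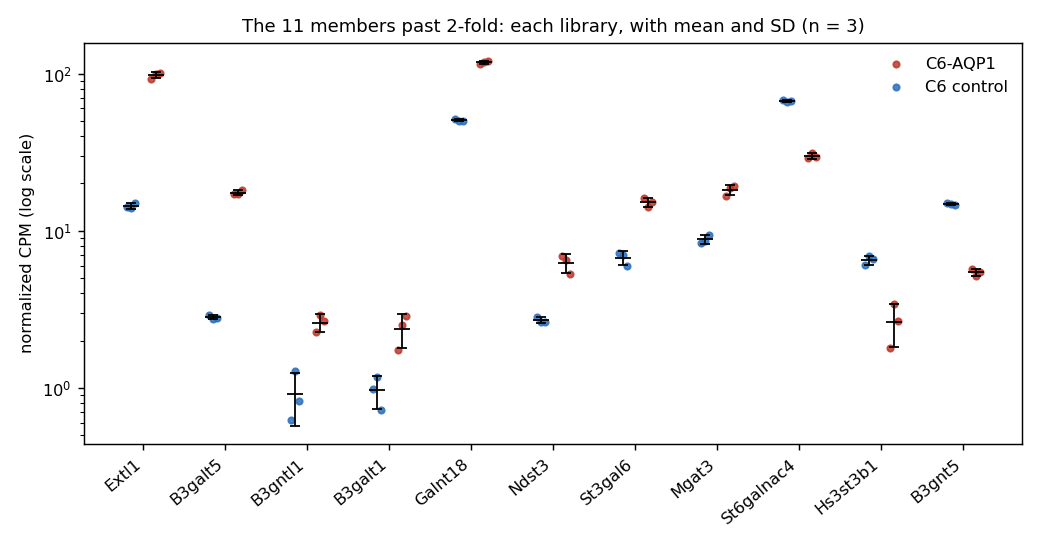
Normalized CPM (log scale) of the 11 genes past a 2-fold change, ordered from the largest rise to the largest fall. Points are libraries, and a black bar gives each group's mean with its SD (n = 3). The 3 libraries of a group never cross those of the other, and the SD is largest against the mean for B3gntl1 and B3galt1 in the controls and for Hs3st3b1 and B3galt1 in C6-AQP1.

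The tetrasaccharide linker that carries heparan and chondroitin sulfate is built by 5 listed enzymes, of which 3 fell, 1 rose and 1 did not pass. Xylt1 and Xylt2 add the xylose. Xylt1 had normalized CPM of 20.7, 22.1 and 21.5 in C6-AQP1 replicates 1, 2 and 3 and of 14.6, 13.1 and 13.7 in C6 control replicates 1, 2 and 3, a log2 fold change of 0.65 ± 0.06 (SE, edgeR adjusted p = 2.3e-09). Xylt2 had 56.1 ± 1.83 normalized CPM over the C6-AQP1 libraries against 57.9 ± 0.966 over the controls (SD, n = 3) and did not pass (log2 fold change -0.05, adjusted p = 0.229 from edgeR). The ratio of Xylt1 to Xylt2 counts was therefore 0.380 to 0.388 in the C6-AQP1 libraries and 0.225 to 0.257 in the controls. The galactosyltransferases B4galt7 and B3galt6 and the glucuronyltransferase B3gat3, which follow, had log2 fold changes of -0.18, -0.37 and -0.34. B3gat3 had 71.3, 74 and 75.8 normalized CPM in the C6-AQP1 libraries and 91.5, 93.8 and 94.4 in the controls, without overlap (adjusted p = 1.2e-09 from edgeR).

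Most genes of a list of proteoglycan cores and other glycan carriers were higher in C6-AQP1. Not every gene of the list carries the linker, such as Dag1, named above for its O-mannose chains. Among all genes, 40.8% rose and 40.7% fell. Of 22 listed proteoglycans and other glycan carriers, 19 rose, 1 fell and 2 did not pass, with a median log2 fold change of 0.64, and 8 were DEGs that rose and 1 a DEG that fell. Some of these genes were known to have risen when the list was written. Ncan, the brain matrix proteoglycan neurocan, had 11.2 ± 0.174 normalized CPM over the C6-AQP1 libraries against 2.69 ± 0.384 over the controls (SD, n = 3). It rose together with brevican (Bcan) and fibromodulin (Fmod), at log2 fold changes of 2.07, 2.60 and 3.43. These 3 genes were low in the controls. Of the 19 rises, 6 were under 1.5-fold, against 2543 of 4948 among all genes. Cspg4, Gpc1 and Gpc4, with far higher counts, had log2 fold changes of 0.07, 0.08 and 0.07, and their groups overlapped. Vcan, also with high counts, did not pass, with -0.03. Gpc6, a glypican that carries heparan sulfate, and Ptprz1, a receptor that carries chondroitin sulfate, had log2 fold changes of 1.38 and 1.40 (named after their values were seen). The fall was that of the heparan sulfate proteoglycan syndecan-1 (Sdc1, also named after its value was seen), which had 89.9 ± 0.354 normalized CPM over the C6-AQP1 libraries against 325 ± 5.22 over the controls (SD, n = 3), a log2 fold change of -1.85 ± 0.02 (SE, edgeR adjusted p = 3.0e-24). Its relatives Sdc2 and Sdc4 rose, with 0.64 and 0.70, and Sdc3 did not pass, with 0.02.

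Heparan sulfate enzymes formed the largest class, with 9 rises, 3 falls and 2 that did not pass among 14 genes. They held 3 of the 11 DEGs, as many as the lactosamine class with its 12 genes. Extl3 starts the chain, Ext1 and Ext2 form the polymerase, and Extl1 and Extl2 are related transferases. Extl1 had normalized CPM of 93, 99.2 and 101 in C6-AQP1 replicates 1, 2 and 3 and of 14.2, 13.9 and 15 in C6 control replicates 1, 2 and 3. All C6-AQP1 libraries were more than 6-fold above all controls, a log2 fold change of 2.77 ± 0.04 (SE, edgeR adjusted p = 9.3e-23). Ext1 had 154 ± 4.99 normalized CPM over the C6-AQP1 libraries against 101 ± 0.580 over the controls (SD, n = 3), a log2 fold change of 0.61 ± 0.03 (SE, edgeR adjusted p = 5.4e-15), while its partner Ext2 had 176 ± 3.04 normalized CPM over the C6-AQP1 libraries against 179 ± 2.88 over the controls (SD, n = 3) and did not pass (adjusted p = 0.26 from edgeR). The ratio of Ext1 to Ext2 counts was 0.831 to 0.912 in the C6-AQP1 libraries and 0.559 to 0.572 in the controls. Extl3 fell, with 309.9, 332 and 326 normalized CPM in the C6-AQP1 libraries and 421, 419 and 426 in the controls, a log2 fold change of -0.38 ± 0.02 (SE, edgeR adjusted p = 1.1e-12). Extl2, which can stop chain growth at the linker, had a log2 fold change of 0.32.

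N-deacetylase/N-sulfotransferases (Ndst) make the first sulfation of the heparan chain, and of the 3 listed, 2 rose. Ndst1 had 110.1 ± 4.62 normalized CPM over the C6-AQP1 libraries against 67.4 ± 3.04 over the controls (SD, n = 3), a log2 fold change of 0.71 ± 0.04 (SE, edgeR adjusted p = 2.5e-13). Ndst3 had normalized CPM of 6.91, 6.47 and 5.27 in C6-AQP1 replicates 1, 2 and 3 and of 2.83, 2.63 and 2.64 in C6 control replicates 1, 2 and 3. These levels rest on 63 to 267 counts a library, and the groups lay apart, a log2 fold change of 1.198 ± 0.13 (SE, edgeR adjusted p = 2.0e-08). Ndst2 had 10.3, 11.3 and 14.3 normalized CPM in the C6-AQP1 libraries and 18, 13.1 and 16.6 in the controls. Its groups overlapped, and its log2 fold change of -0.37 did not pass with edgeR (adjusted p = 0.097) but did with DESeq2 (adjusted p = 0.00228). It also passed without C6-AQP1 replicate 3 or without C6 control replicate 2 (adjusted p = 0.00479 and 0.0023, edgeR). The 3-O-sulfotransferases, which place a rare sulfate that binding partners such as antithrombin recognize, went apart. Hs3st3b1 had normalized CPM of 1.79, 3.42 and 2.67 in C6-AQP1 replicates 1, 2 and 3 and of 6.01, 6.86 and 6.61 in C6 control replicates 1, 2 and 3. The C6-AQP1 libraries, with 35 to 141 counts, were spread widely, but all were below the controls, a log2 fold change of -1.26 ± 0.16 (SE, edgeR adjusted p = 1.4e-06). Hs3st5 fell by 0.45 and Hs3st1 was higher by 0.12 on the log2 scale (adjusted p = 4.9e-04 and 0.00177 from edgeR). Hs2st1, Hs6st1 and the endosulfatase Sulf2, which trims 6-O-sulfate at the cell surface, rose by under 1.1-fold, with log2 fold changes of 0.06, 0.09 and 0.11. Hs6st1 lost its call with DESeq2 (adjusted p = 0.0894), and both Hs2st1 (adjusted p = 0.0644 without C6-AQP1 replicate 3) and Hs6st1 (adjusted p = 0.196 without C6-AQP1 replicate 2 and 0.0522 without C6 control replicate 1) lost theirs without 1 library in edgeR.

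Chondroitin and dermatan sulfate enzymes counted 6 rises, 2 falls and 1 that did not pass among 9 genes, none of them a DEG. Polymerization rests on Chsy1 with Chpf or Chpf2. Chsy1 fell, with 113 ± 2 normalized CPM over the C6-AQP1 libraries against 144 ± 3.62 over the controls (SD, n = 3), a log2 fold change of -0.35 ± 0.03 (SE, edgeR adjusted p = 1.1e-10). Chpf2 rose, with 110.0, 119 and 119 normalized CPM in the C6-AQP1 libraries and 81.4, 85.5 and 87.1 in the controls, a log2 fold change of 0.46 ± 0.03 (SE, edgeR adjusted p = 1.1e-10). Chpf had 192, 217 and 222 normalized CPM in the C6-AQP1 libraries and 184, 187 and 195 in the controls. Only C6-AQP1 replicate 1 lay within the control range, and Chpf did not pass (log2 fold change 0.16, adjusted p = 0.0513 from edgeR). Without that library its adjusted p was 3.2e-11, and without C6 control replicate 3 it was 0.0468 (edgeR). It also passed with DESeq2 (adjusted p = 2.2e-04), limma-voom (0.0407), filterByExpr (0.0453), upper-quartile scaling (0.0201) and library totals (0.0144). Csgalnact1 and Csgalnact2, which commit the linker to chondroitin, went apart, with log2 fold changes of 0.21 and -0.15.

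The 4 Chst genes of this class rose in C6-AQP1, while Ust, a chondroitin and dermatan sulfotransferase outside the symbol rule, did not pass (log2 fold change 0.04, adjusted p = 0.713 from edgeR). Chst12, a 4-O-sulfotransferase, had normalized CPM of 43, 46.3 and 45.7 in C6-AQP1 replicates 1, 2 and 3 and of 22, 23.9 and 24.7 in C6 control replicates 1, 2 and 3. The groups did not overlap and Chst12 lay just under the 2-fold bar, at 1.91-fold, a log2 fold change of 0.93 ± 0.05 (SE, edgeR adjusted p = 4.9e-14). Its paralog Chst11 rose less, with a log2 fold change of 0.21, and the ratio of Chst12 to Chst11 counts was 0.274 to 0.292 in the C6-AQP1 libraries against 0.163 to 0.179 in the controls. Chst3, which makes 6-O-sulfated chondroitin, had 108 ± 2.44 normalized CPM over the C6-AQP1 libraries against 80.0 ± 0.426 over the controls (SD, n = 3), a log2 fold change of 0.43 ± 0.03 (SE, edgeR adjusted p = 5.3e-12). Chst15, which adds another sulfate to 4-O-sulfated chains, had 1.72 ± 0.0788 normalized CPM over the C6-AQP1 libraries against 1.17 ± 0.166 over the controls (SD, n = 3) and a log2 fold change of 0.53 ± 0.19 (SE, edgeR adjusted p = 0.0158). It did not pass with DESeq2 (adjusted p = 0.0656) or without C6-AQP1 replicate 3 (adjusted p = 0.0543, edgeR). Dermatan epimerases outside the symbol rule had log2 fold changes of -0.14 (Dse) and 0.65 (Dsel). Has2, the 1 listed hyaluronan synthase, had 23.8, 22.3 and 22.6 normalized CPM in the C6-AQP1 libraries and 21.3, 20.3 and 20.2 in the controls, a log2 fold change of 0.15 ± 0.05 (SE, edgeR adjusted p = 0.0142), and it missed the threshold with DESeq2 (adjusted p = 0.0508).

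**Figure D4:**
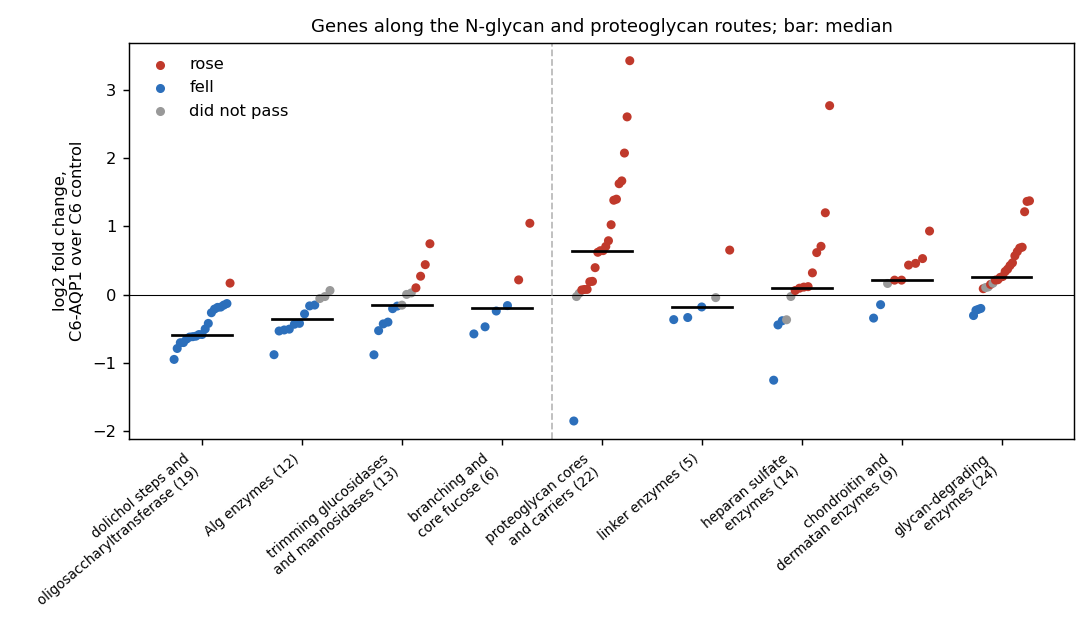
Log2 fold change (C6-AQP1 over C6 control, vertical axis) of each gene along the N-glycan route (left of the dashed line) and along the proteoglycan route with the degrading enzymes (right). Points are genes, black bars are medians and numbers in brackets count genes. The medians run from -0.59 for the dolichol and oligosaccharyltransferase genes to 0.64 for the proteoglycan cores and other carriers, with the linker enzymes at -0.18.

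Sialyltransferases that cap galactose rose or did not pass: 4 of 6 rose and none fell. St6gal1, which makes the 6-linked sialic acid of N-glycans, had normalized CPM of 90.4, 91 and 89.2 in C6-AQP1 replicates 1, 2 and 3 and of 57.7, 59.9 and 57.7 in C6 control replicates 1, 2 and 3, a log2 fold change of 0.62 ± 0.03 (SE, edgeR adjusted p = 3.2e-14). St3gal6, which makes 3-linked sialic acid on lactosamine, had normalized CPM of 16.1, 14.2 and 15.2 in C6-AQP1 replicates 1, 2 and 3 and of 7.18, 7.04 and 5.98 in C6 control replicates 1, 2 and 3. The groups lay apart by more than the spread within them, a log2 fold change of 1.18 ± 0.08 (SE, edgeR adjusted p = 1.7e-11). St3gal4 had 239 ± 3.51 normalized CPM over the C6-AQP1 libraries against 199 ± 1.02 over the controls (SD, n = 3), a log2 fold change of 0.27 ± 0.02 (SE, edgeR adjusted p = 2.4e-10). St3gal1, which acts on O-GalNAc chains, had a log2 fold change of 0.27, while St3gal2 and St3gal3 did not pass, with -0.02 and -0.06.

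The remaining 12 genes build lactosamine chains and their sulfated ends, and they held 6 rises, 4 falls and 2 that did not pass, with 3 DEGs. B3galt5 had normalized CPM of 17.2, 17 and 18.2 in C6-AQP1 replicates 1, 2 and 3 and of 2.92, 2.75 and 2.80 in C6 control replicates 1, 2 and 3. Its level in every C6-AQP1 library was more than 5-fold that in any control, a log2 fold change of 2.64 ± 0.08 (SE, edgeR adjusted p = 1.5e-17). B3galt1, of the same galactosyltransferase family, had normalized CPM of 1.74, 2.52 and 2.86 in C6-AQP1 replicates 1, 2 and 3 and of 0.987, 1.18 and 0.724 in C6 control replicates 1, 2 and 3. Counts of B3galt1 were few, at 22 to 121 a library, with a log2 fold change of 1.34 ± 0.22 (SE, edgeR adjusted p = 9.2e-06). Its groups did not overlap, which held for 82.5% of all genes. B3gntl1, placed here by its name alone, had normalized CPM of 2.25, 2.91 and 2.65 in C6-AQP1 replicates 1, 2 and 3 and of 0.628, 1.28 and 0.821 in C6 control replicates 1, 2 and 3. It rested on 14 to 120 counts a library, a log2 fold change of 1.46 ± 0.21 (SE, edgeR adjusted p = 1.9e-06). Genes were listed if their average TPM passed 1 in either group. B3galt1 and B3gntl1 may thus be listed only through their C6-AQP1 level, as may other DEGs that were low in the controls, such as Ndst3 and B3galt5. Likewise Hs3st3b1, low in C6-AQP1, may be listed only through the controls. Such a filter favors large changes in either direction among low genes. B3gnt2, the main enzyme that extends lactosamine repeats, went the other way, with 114 ± 0.776 normalized CPM over the C6-AQP1 libraries against 153 ± 3.27 over the controls (SD, n = 3) and a log2 fold change of -0.43 ± 0.03 (SE, edgeR adjusted p = 9.1e-13). Of the galactosyltransferases B4galt1 to B4galt4, B4galt2 fell, with -0.51, B4galt1 and B4galt4 rose, with 0.12 and 0.19, and B4galt3 did not pass. The call of B4galt4 ended with DESeq2 (adjusted p = 0.112) and, in edgeR, without C6-AQP1 replicate 2 (0.198), C6-AQP1 replicate 3 (0.107), C6 control replicate 1 (0.0845) or C6 control replicate 3 (0.0656). Chst10, which sulfates the HNK-1 epitope of neural adhesion molecules, had normalized CPM of 6.76, 7.87 and 8.77 in C6-AQP1 replicates 1, 2 and 3 and of 14.4, 15.4 and 15.6 in C6 control replicates 1, 2 and 3. All controls were above all C6-AQP1 libraries, and the log2 fold change of -0.94 ± 0.08 (SE, edgeR adjusted p = 6.0e-10) fell just short of a DEG. Without C6-AQP1 replicate 3 it was -1.03, past 2-fold. Chst2, which sulfates N-acetylglucosamine, had 174 ± 8.31 normalized CPM over the C6-AQP1 libraries against 164 ± 4.81 over the controls (SD, n = 3). Chst5, of the same family, fell, with -0.53, and Gcnt2, which branches lactosamine chains, did not pass, with -0.01. The groups of Chst2 overlapped, and its rise (log2 fold change 0.09, adjusted p = 0.0157 from edgeR) was lost without C6-AQP1 replicate 2 (adjusted p = 0.0727) or C6-AQP1 replicate 3 (adjusted p = 0.10).

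Related enzymes were also compared as ratios within a library, which do not depend on scaling between libraries. With 3 libraries a group the exact permutation test (two-sided) cannot go below 0.10. In 61 of the 70 pairs computed the ratios of the groups did not overlap, so separation was common. The pairs named here were chosen after their values were seen. The ratio of Galnt18 to Galnt2 counts was 0.519 to 0.526 in C6-AQP1 and 0.186 to 0.196 in the controls, a 2.75-fold shift. The ratio of Hs3st1 to Hs3st3b1 counts was 21.0 to 39.6 in C6-AQP1 and 9.50 to 11.2 in the controls. That of Ndst1 to Ndst2 was 7.95 to 10.1 against 3.55 to 5.23. These are ratios of counts and not of levels, since transcript lengths were not used.

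**Figure D5:**
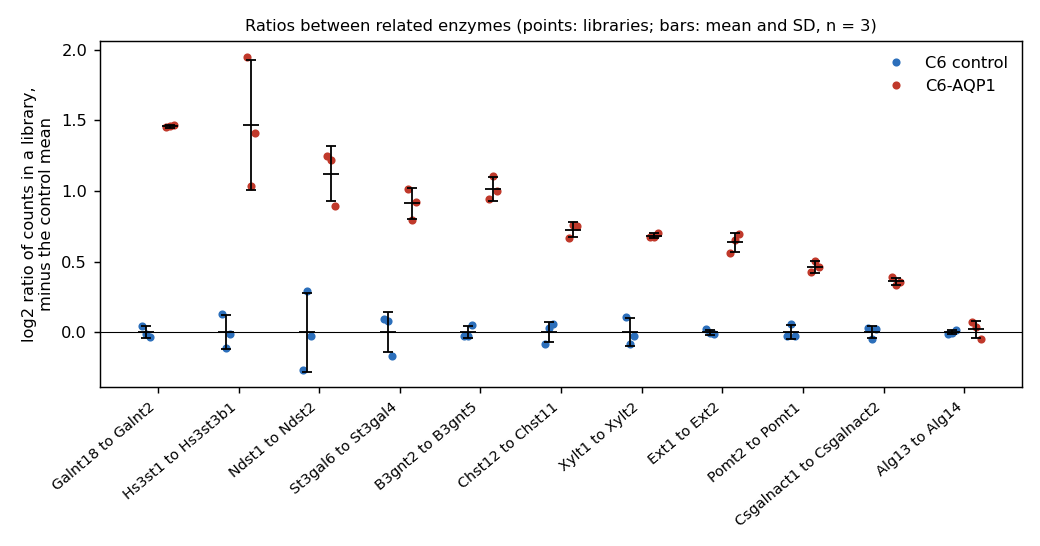
Log2 ratio of the counts of related enzymes within each library, minus the mean of the C6 control libraries (vertical axis), for 11 pairs. Points are libraries, and black bars give the mean and SD (n = 3). The ratio of Galnt18 to Galnt2 lies 1.46 above the controls, and the ratio of Alg13 to Alg14 overlaps between the groups.

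Genes of donor supply, which these enzymes share, held more falls than rises, most of them small. Of all genes 40.8% rose and 40.7% fell, the shares to set beside this list and those that follow. Of 26 listed genes that make nucleotide sugars or the sulfate donor, 6 rose, 16 fell and 4 did not pass, with a median of -0.22. Under 1.5-fold were 4 of the 6 rises and 12 of the 16 falls. Papss2, a synthase of the sulfate donor, had 168 ± 3.43 normalized CPM over the C6-AQP1 libraries against 60.1 ± 1.61 over the controls (SD, n = 3), a log2 fold change of 1.48 ± 0.03 (SE, edgeR adjusted p = 3.2e-21), while its paralog Papss1 had a log2 fold change of -0.55. Fuk, of fucose salvage, had 0.91, and Gne and Ugdh, which lead to sialic acid and glucuronic acid (named after their values were seen), had -0.74 and -0.88. Of 12 Golgi transporters of these donors, 6 rose, 4 fell and 2 did not pass. Slc35a1, which carries CMP-sialic acid, had 47.6 ± 1.88 normalized CPM over the C6-AQP1 libraries against 68 ± 2.86 over the controls (SD, n = 3), a log2 fold change of -0.52 ± 0.04 (SE, edgeR adjusted p = 4.4e-11). Slc35a4 had -0.50, and Slc35d2, with 1.31 ± 0.444 normalized CPM over the C6-AQP1 libraries against 0.607 ± 0.192 over the controls (SD, n = 3), had 1.23.

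Among 26 other enzymes that form glycans but do not match the stems, 8 rose, 13 fell and 5 did not pass. The single DEG among them was Ogt, which puts N-acetylglucosamine on nuclear and cytosolic proteins, with 265 ± 3.35 normalized CPM over the C6-AQP1 libraries against 114 ± 0.467 over the controls (SD, n = 3) and a log2 fold change of 1.22 ± 0.02 (SE, edgeR adjusted p = 1.9e-21). Of 24 enzymes that degrade glycans, mostly in lysosomes, 17 rose, 4 fell and 3 did not pass, with a median of 0.26. Idua, which removes iduronic acid from heparan and dermatan sulfate, Hyal1, a hyaluronidase, and Manba, a mannosidase, had log2 fold changes of 1.37, 1.36 and 1.21. Idua had 58.8 ± 2.33 normalized CPM over the C6-AQP1 libraries against 23 ± 1 over the controls (SD, n = 3) (adjusted p = 1.3e-17 from edgeR).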

How the data were processed

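RNA of 3 C6-AQP1 and 3 C6 control libraries was sequenced after amplification of the cDNA. Per the submitters' processing notes and the study's methods, the authors used FastQC 0.11.2, Trimmomatic 0.36, STAR 2.5.1b with the rn6 genome and RSEM 1.2.29, and kept genes with an average TPM above 1 in a group. Genes with few counts, such as Fmod and Slc35d2, may therefore be listed only through the group where they were high. The sources used here do not give the gene annotation or the strand setting of the counting. The deposited values of the authors are expected counts per gene, not normalized, in which a read that fits several genes is divided among them. Genes with close copies are therefore less certain.

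The expected counts were rounded, scaled by TMM factors (normalized CPM) and compared with the quasi-likelihood test of edgeR 4.0.16 (R 4.3.3, robust, no covariate), with Benjamini-Hochberg adjustment over all 12121 genes. Genes rose or fell if the adjusted p was under 0.05, and DEGs also had an absolute log2 fold change above 1. The steps were tested on simulated data. Standard errors come from the fold change and the test statistic. The symbols, classes and lists were chosen with earlier results of these data known. Named genes were every DEG, the largest changes with at least 50 counts in each library of the higher group, the highest CPM of each class, partners in obligate pairs and up to 3 genes of each other list. Further genes are named to account for the class. Some genes of the other lists are not reported here by name. No gene of the classes had 3 counts or fewer in a group. Library totals lay between 19054244 and 52725870 counts, with a common biological coefficient of variation of 2.97% in edgeR. Libraries of a group differed by more than sampling noise (chi-square per degree of freedom 2.15 to 4.31), and each was counted separately. Such a difference can be technical and does not show that they stem from separate cultures. Alternatives were DESeq2 1.42.0, limma-voom (3.58.1) without rounding, other scalings, filterByExpr, the replicate number as a block, and leaving out libraries. Promoters were read from RefSeq (GRCr8), using the first entry for the 5 symbols with several.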

Additional observations from a re-analysis of the deposited data

How the results depend on the processing

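Over 13 alternatives, none of the 75 genes past the threshold reversed, 63 passed in each and 12 lost the call in at least 1, while 4 of the 13 others passed in at least 1. All 11 DEGs remained DEGs in every alternative. The counts stayed within 1.5 times, at 33 to 40 rises, 33 to 39 falls, 8 DEGs higher and 3 or 4 lower. The median log2 fold change of the 88 genes was 0.00830 with upper-quartile scaling and 0.0276 with library totals alone, under which the median of all genes moved to 0.04 and 0.05. It lay between -0.0267 and -0.00403 with 1 library left out (-0.00403 without C6 control replicate 3). This median thus changed sign with upper-quartile scaling and with library totals alone. Among single genes, reversals were limited to those that had not passed. Pomt1 was at 0.0191 with upper-quartile scaling, at 0.0381 with library totals alone and between -0.0414 and 0.0242 with 1 library left out. Alg2 was at 0.00502 and 0.0241 under these scalings. St3gal5 lay between -5.3e-04 and 0.0275 with 1 library left out and was at -0.00135 without both replicate 1 libraries.

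Replicate numbers were not taken to pair the samples: the deviations of same-numbered libraries correlated at 0.126, -0.0124 and 0.0651, and not every library correlated best with its own number. With the replicate number as a block, 38 genes rose and 39 fell, with 8 DEGs higher and 3 lower and a median of -0.0267, and Chpf and Ndst2 passed (adjusted p = 1.4e-06 and 0.0037 from edgeR).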
